A study of Mus musculus with 8 samples.

Results

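The genes of protein entry into the endoplasmic reticulum (ER) were followed in mouse liver under ER stress. They are 38 listed genes for the signal recognition particle and its receptor, the SEC61 channel and its partners, signal peptidase, tail-anchor insertion, the ER membrane complex and 2 partners of the luminal Hsp70 cycle. All 38 occur among the 16133 genes of the authors' deposited table, and all 38 are among the 14257 genes that the authors tested. Every mouse had been given tunicamycin, an inhibitor of N-glycosylation in the ER, by intraperitoneal injection at 2 mg/kg 24 hours earlier, so there is no group without the drug. WT is the genotype METTL14f/f, with floxed alleles of a subunit of the m6A methyltransferase. KO is the genotype METTL14Alb, given in the series' design as a liver knockout; Alb is the symbol of albumin, a hepatocyte gene, and other liver cells may keep METTL14. Age, sex and strain are not given in the labels. Polyadenylated RNA of whole liver was sequenced before (input) and after immunoprecipitation of N6-methyladenosine (m6A, a mark on mRNA), with 2 libraries in each of 4 groups. Whether the 2 libraries of a group come from separate mice is open in the labels, so the p-values reflect the spread between libraries, which may be technical.

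Proteins that enter the ER carry a hydrophobic signal, which the signal recognition particle binds as it leaves the ribosome. The particle docks at its receptor, the ribosome passes to the SEC61 channel, and the signal peptide is cut off by signal peptidase on the luminal side. Proteins with other membrane topologies use the tail-anchor route or the ER membrane complex, and the luminal Hsp70 BiP helps to close the channel and to pull chains through. Hepatocytes secrete most plasma proteins and depend on this route, and XBP1 and ATF6, transcription factors of the unfolded protein response, are known to induce many of its genes.

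The digits of the deposited means gave back the read counts of the 4 input libraries for 16035 genes (99.4%), including all 38. Estimated totals were 12620257 and 12357999 reads for the KO libraries A and B and 16868156 and 13460701 for those of WT. Of these, the recovered genes held 8954071 and 8919754 reads in KO and 10126211 and 8062840 in WT. The rest belongs to genes not recovered, most of them very abundant, and was filled in from the deposited mean of each genotype. The letters A and B do not stand for replicate numbers. The numerator of the fold change is unnamed in the header; KO over WT was inferred from the peak lists, and all directions given here depend on that. Of the genes with a mean of at least 100 in the authors' deposited table, 347 were above 2, and peaks of 156 of them were listed for KO only and of 0 for WT only; for the 403 below -2 these numbers were 30 and 46. Mettl14 itself had normalized counts of 64.6 and 62.0 in KO and 79.8 and 99.7 in WT, which do not overlap. Its log2 change in the authors' deposited table was -0.50 ± 0.41 (SE, adjusted p = 0.342), so the targeted gene did not pass the test, and with equal total counts its sign turned (0.32, adjusted p = 0.308, limma). Of 10 hepatocyte markers 9 were lower and 1 higher in KO in the authors' deposited table (median -1.96), of 8 bile duct markers 7 were higher and of 8 stellate cell markers 6 were higher. Summed normalized counts of the bile duct markers were 4787 and 3769 in KO against 821 and 999 in WT, with Krt7 and Cldn4 at 0 in a library, and those of the stellate markers 8230 and 5483 against 1835 and 1335. The 3 recovered hepatocyte markers summed to 13913 and 15423 in KO and to 58312 and 46075 in WT. Albumin itself, the most abundant of the hepatocyte markers, had a mean count of 349244 for Alb in the authors' deposited table. Among 8 macrophage markers 1 was higher and 2 lower, of 6 endothelial markers 1 was lower, and of 5 tested lymphocyte and plasma cell markers 0 were called. These shifts move with every result below, and their part in it was not tested. In bulk liver, fewer hepatocytes and less RNA per hepatocyte cannot be told apart.

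Most of the ER import genes had less mRNA in KO than in WT liver at the authors' size factors. An adjusted p below 0.05 in the authors' deposited table (Wald test of DESeq2) called 27 of the 38 lower and 2 higher (Tram2 and Wrb), and 9 were not called. Over all tested genes 22.2% were called lower and 20.4% higher, 42.5% in all. The level of a gene matters for this background: among the 4972 genes in the mean count range of the 35 most abundant import genes (382 to 11492), 41.9% were lower and 17.0% higher. Of those 35, 27 were lower and 0 higher (0 at an unadjusted p below 0.05 as well, DESeq2). The median log2 change of the 38 genes was -0.73 in the authors' deposited table, against -0.32 for genes of like mean count and 0.05 for all tested genes. A fall of at least 2-fold was seen in 12 genes (15.0% of all tested genes) and a rise of that size in 1 (21.2%). Both KO libraries lay below both WT libraries in 31 genes (37.0% of all), above them in 3 (39.9%), and the genotypes overlapped in 4, namely Ssr1, Ssr2, Emc1 and Hspa13. Limma on the recovered counts called 27 lower (24.4% of all genes) and 2 higher (25.2%). Without KO A or without KO B only 1 KO library is left, and the calls were lost in limma. The median log2 change of the 38 genes was then -0.71 and -0.78, and all 29 called genes kept their sign. No import gene differed 2-fold between the libraries of a genotype. Srpr, Spcs1, Spcs2, Serp1, Emc4 and Emc10 overlap the span of another gene of the table in RefSeq, and whether reads were counted by strand is unknown here, so these 6 may share reads with a neighbour.

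These directions depend on how the libraries are scaled. The total counts used here are the estimates given above, in which abundant genes without recovered counts carry a large share. With equal total counts in each library, limma put the median log2 change of all genes at 0.87 instead of 0.06, a shift of 0.81. The median of the 38 import genes then was 0.09 instead of -0.73, and 16 of them were below 0. That fit called 5 of the import genes lower (7.83% of all genes), namely Ssr4, Sec11c, Serp1, Srp54a and Spcs2. It called 9 higher (58.3% of all genes): Sec61a2, Ssr1, Ssr2, Srprb, Tram2, Wrb, Emc1, Hspa13 and Sil1. Of the 38, 33 lay below the median of all genes. Scaling shifts all genes by nearly the same amount, so this number could hardly change between the scalings. Genes of the same mean count range had a median of 0.50 with equal totals. In what follows a log2 change is that of the authors' deposited table unless total counts are named, and lower and higher are relative to the authors' size factors.

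**Figure D1:**
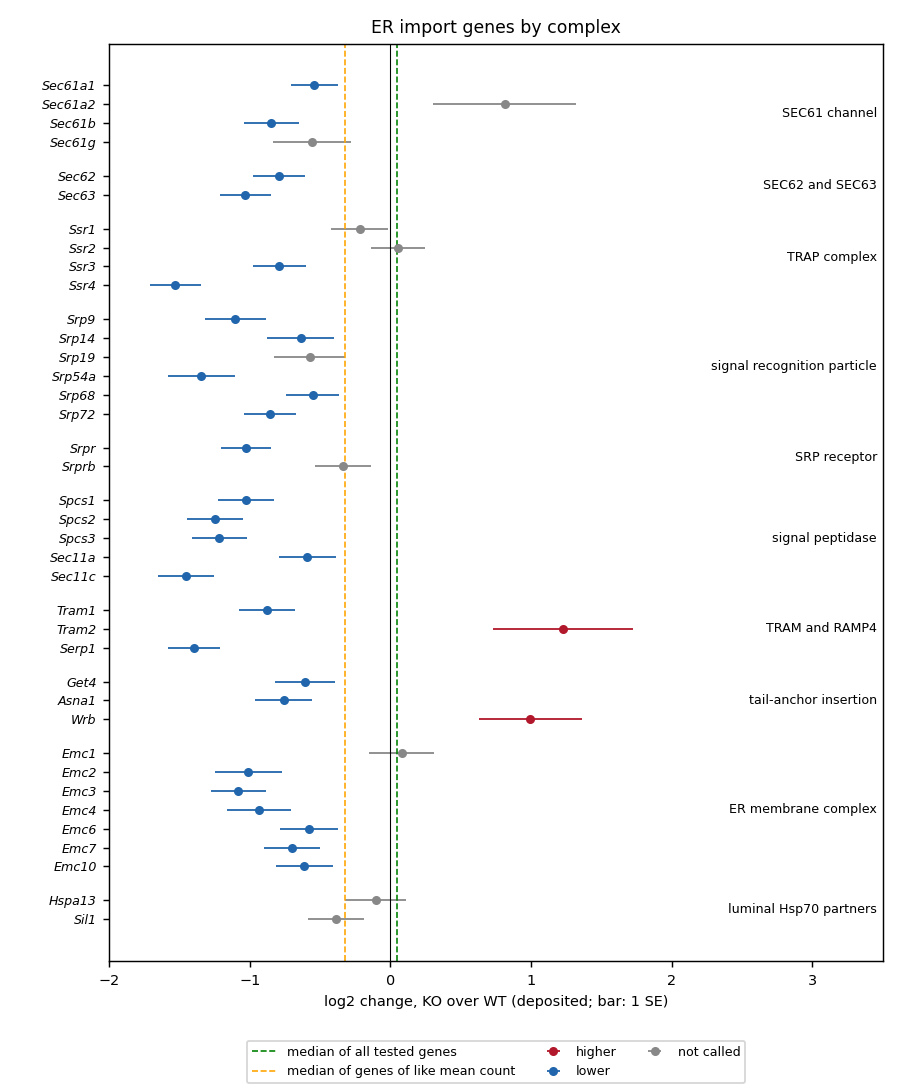
Log2 change of KO over WT from the authors' deposited table (horizontal axis; bars are 1 SE) for the 38 ER import genes, ordered by complex; the green and orange dashed lines are the medians of all tested genes (0.05) and of genes of like mean count (-0.32). Points of 27 genes are blue (lower) and 2 red (higher); with equal total counts 16 of the 38 values would lie below 0.

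**Figure D2:**
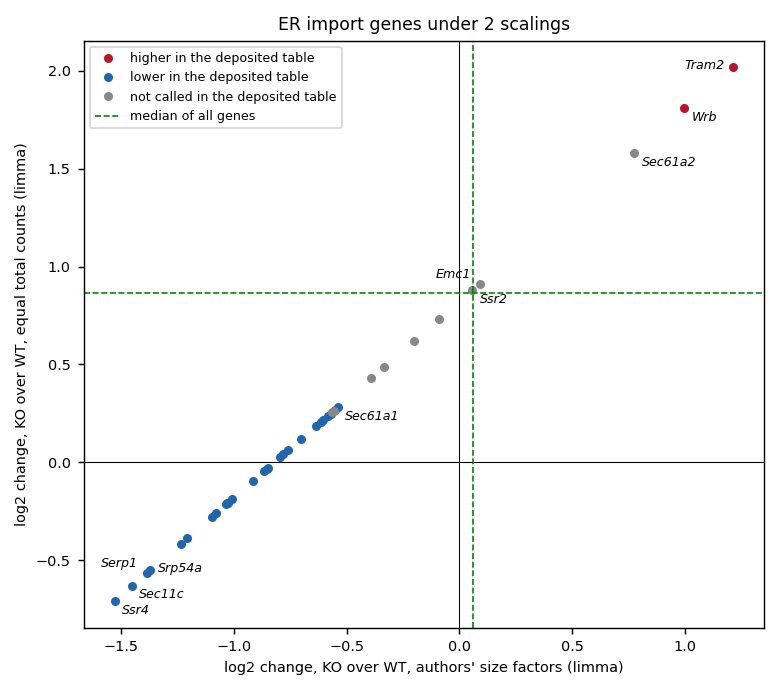
Log2 change of KO over WT in limma with the authors' size factors (horizontal axis) and with equal total counts per library (vertical axis), 1 point per ER import gene, coloured by its call in the authors' deposited table; dashed lines are medians of all genes (0.06 and 0.87). Scaling moves all points up by nearly the same amount, so their order is nearly fixed by construction. Ssr4, Sec11c, Serp1 and Srp54a are lowest and Tram2 and Wrb highest.

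Promoter sequences are shown for 4 of the genes because most of the set was called in 1 direction at the authors' size factors and because part of it is known to be under XBP1 and ATF6. RefSeq's promoter table (GRCm38.p6, the assembly of mm10) held 28 of the 38 genes, each with 250 bases before and 50 after the start. The motif GACGTGG, the core bound by XBP1 and ATF6, was found on either strand in 3 of the 28 (10.7%), Serp1, Sec63 and Ssr1, against 2.42% of all 32851 promoters. The 250 bases before the start of these 3 and of Ssr4, the gene with the largest fall, are printed 5′ to 3′ on the gene's strand, with the match in capitals; it reads CCACGTC, which is GACGTGG on the other strand. The regions are chr3:58525885-58526134 (minus strand) for Serp1, chr10:42761246-42761495 (plus) for Sec63, chr13:37994209-37994458 (minus) for Ssr1 and chrX:73786773-73787022 (plus) for Ssr4.
Serp1: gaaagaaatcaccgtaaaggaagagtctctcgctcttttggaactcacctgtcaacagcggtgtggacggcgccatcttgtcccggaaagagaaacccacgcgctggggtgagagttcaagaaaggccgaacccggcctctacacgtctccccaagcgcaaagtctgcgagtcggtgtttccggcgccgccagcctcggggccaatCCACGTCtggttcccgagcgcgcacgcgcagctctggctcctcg
Sec63: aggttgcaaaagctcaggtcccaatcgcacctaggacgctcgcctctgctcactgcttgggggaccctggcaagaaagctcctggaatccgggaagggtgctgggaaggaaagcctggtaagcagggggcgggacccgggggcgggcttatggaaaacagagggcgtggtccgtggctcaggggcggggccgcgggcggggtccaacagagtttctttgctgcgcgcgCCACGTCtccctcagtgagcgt
Ssr1: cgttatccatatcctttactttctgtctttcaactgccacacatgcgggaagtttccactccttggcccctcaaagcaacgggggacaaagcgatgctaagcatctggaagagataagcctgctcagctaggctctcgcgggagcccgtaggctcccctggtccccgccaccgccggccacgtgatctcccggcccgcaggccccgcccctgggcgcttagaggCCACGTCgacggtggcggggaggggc
Ssr4: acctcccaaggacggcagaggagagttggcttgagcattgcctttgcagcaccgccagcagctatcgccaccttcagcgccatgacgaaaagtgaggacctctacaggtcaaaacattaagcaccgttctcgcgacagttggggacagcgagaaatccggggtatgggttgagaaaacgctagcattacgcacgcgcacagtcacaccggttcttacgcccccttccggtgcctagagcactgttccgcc
The match begins 44 bases before the start in Serp1, 22 in Sec63 and 26 in Ssr1, and the window of Ssr4 holds none. Serp1 and Sec63 were called lower in the authors' deposited table (-1.40 and -1.03), whereas Ssr1 was not called (-0.22), so the 3 genes with this match differed in their call. The 4 promoters were picked after the matches and the changes had been seen, from a search for 12 motifs on both strands of all 300 bases. The ER stress response element was in 0 of the 28 promoters (0.119% of all), its second form in 0 (0.0365%) and the amino acid response element TGATGNAAT in 0 (0.965%). TGACGTGG was in 0 (0.676%), the cAMP response element TGACGTCA in 1 (1.79%), the NRF1 motif in 0 (0.971%) and the YY1 motif in 2 (0.633%). Of the other motifs, CCACGT was in 8 (28.6%, against 8.31%), CCACG in 18 (64.3%, against 32.8%), the ETS motif CCGGAAG in 7 (25.0%, against 8.86%) and CCAAT in 10 (35.7%, against 37.4%). CCACG and CCACGT lie within CCACGTC, and GACGTGG within TGACGTGG, so these counts overlap. The share of all promoters is not matched for expression or base composition, and the ETS and YY1 motifs were more frequent in the 28 as well. What the higher share of GACGTGG reflects was not tested. A match is a run of letters and was not tested for binding.

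Targeting begins with the signal recognition particle, and 5 of its 6 listed protein genes were lower in KO. The median log2 change of the 6 was -0.75 in the authors' deposited table and 0.07 with equal totals. Srp54a encodes the GTPase that binds the signal peptide. Its normalized counts were 516 and 788 in KO and 1522 and 1788 in WT, well apart, and its log2 change was -1.34 ± 0.24 (SE, adjusted p = 1.11e-07 in the authors' deposited table). Srp54a, Srp54b and Srp54c are near copies that may share reads, so the value of each is uncertain; the other two had -1.14 and -1.21 in the authors' deposited table. Srp9, a part of the dimer that slows elongation, had 583 and 698 against 1212 and 1539 normalized counts, a log2 change of -1.10 ± 0.22 (adjusted p = 2.62e-06 in the authors' deposited table). Its partner Srp14 had 494 and 401 against 616 and 780 (-0.64 ± 0.24, adjusted p = 0.0185 in the authors' deposited table). For both genes of this dimer the KO libraries lay below the WT libraries. Srp72, a scaffold of the particle, had 1756 and 1651 against 2890 and 3286 (-0.86 ± 0.18, adjusted p = 1.95e-05 in the authors' deposited table). Srp68, which pairs with Srp72, had 1140 and 1163 against 1607 and 1775, the smallest of the 5 falls (-0.55 ± 0.19, adjusted p = 0.0102 in the authors' deposited table). Srp19, which helps to assemble the particle on its RNA, had 393 and 347 against 458 and 645 and did not pass the test (-0.57 ± 0.25, adjusted p = 0.0512 in the authors' deposited table), though limma called it (adjusted p = 0.0436).

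The 2 subunits of the receptor differed. Srpr, the GTPase that meets the particle at the membrane, had 2986 and 3368 normalized counts in KO against 6104 and 6852 in WT, 2.04-fold less (log2 change -1.03 ± 0.18, adjusted p = 1.12e-07 in the authors' deposited table). Srprb, which anchors it in the membrane, had 1517 and 1659 against 1793 and 2227 and did not pass the test (-0.34 ± 0.20, adjusted p = 0.160 in the authors' deposited table). Scaling cancels in the ratio of 2 genes within a library, and that of Srpr to Srprb was 1.97 and 2.03 in KO against 3.40 and 3.08 in WT.

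At the channel, Sec61a1 and Sec61b were lower, and Sec61g and the rare paralog Sec61a2 were not called. The median log2 change of the 4 SEC61 genes was -0.55 in the authors' deposited table and 0.27 with equal totals. Sec61a1, the pore subunit, had 9140 and 9589 normalized counts in KO and 13103 and 14136 in WT (-0.54 ± 0.17, adjusted p = 0.00501 in the authors' deposited table). Sec61a1 narrowly missed the threshold in limma on the recovered counts (adjusted p = 0.0511). Sec61b, a small tail-anchored subunit, had 1307 and 1581 against 2433 and 2759, a fall of 0.85 ± 0.20 (adjusted p = 7.85e-05 in the authors' deposited table). Sec61g, the third subunit, had 273 and 405 against 413 and 586, with the higher KO library just under the lower WT library (-0.56 ± 0.28, adjusted p = 0.0939 in the authors' deposited table). Sec61a2, a paralog of the pore subunit at low level, had 51.8 and 72.2 in KO against 35.6 and 35.0 in WT (0.81 ± 0.51, adjusted p = 0.196 in the authors' deposited table). The libraries of Sec61a2 did not overlap, and with equal totals limma called it higher (1.58, adjusted p = 0.00372).

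SEC62 and SEC63 serve chains that reach the channel after translation, and SEC63 brings BiP to it. Both genes were lower in the authors' deposited table. Sec63 had 2103 and 2227 normalized counts in KO and 4124 and 4739 in WT (-1.03 ± 0.18, adjusted p = 1.16e-07 in the authors' deposited table). Sec62 had 1581 and 1779 against 2925 and 2893 (-0.79 ± 0.18, adjusted p = 7.67e-05 in the authors' deposited table). With equal totals their values were -0.21 and 0.03.

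The TRAP complex, which assists signal peptides that open the channel poorly, had 2 of 4 genes lower and values spread from -1.53 to 0.05 in the authors' deposited table. Ssr4, its delta subunit, had the largest fall of all 38 genes. Its normalized counts were 1818 and 2018 in KO and 5214 and 5867 in WT, 2.89-fold less (log2 change -1.53 ± 0.18, adjusted p = 8.04e-16 in the authors' deposited table), and it was called lower with equal totals too (-0.71, adjusted p = 0.00322, limma). Ssr3, the gamma subunit, had 6609 and 5932 against 9513 and 12166 (-0.79 ± 0.19, adjusted p = 1.74e-04 in the authors' deposited table; 0.04 with equal totals). The other two overlapped between genotypes. Ssr1 had 4174 and 4354 against 4177 and 5758 (-0.22 ± 0.20, adjusted p = 0.401 in the authors' deposited table). Ssr2 had 3136 and 3567 against 2912 and 3543 (0.05 ± 0.19, adjusted p = 0.853 in the authors' deposited table). The ratio of Ssr4 to Ssr2, counts of 2 subunits of 1 complex, was 0.580 and 0.566 in KO against 1.79 and 1.66 in WT, a 3.01-fold difference that no scaling of whole libraries can change.

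TRAM1 and RAMP4 (Serp1) sit beside the channel, and TRAM2 is a paralog of TRAM1 linked to collagen synthesis. Serp1 had 5407 and 5303 normalized counts in KO and 12413 and 15770 in WT (-1.40 ± 0.19, adjusted p = 1.25e-12 in the authors' deposited table; with equal totals -0.56, adjusted p = 0.0280, limma). Tram1 had 2513 and 2768 against 4180.2 and 5517 (-0.88 ± 0.20, adjusted p = 5.48e-05 in the authors' deposited table). Tram2 moved the other way, with 69.3 and 81.6 in KO against 25.9 and 39.1 in WT, a 2.34-fold rise (1.23 ± 0.50, adjusted p = 0.0343 in the authors' deposited table). The ratio of Tram2 to Tram1 counts was 0.0276 and 0.0295 in KO and 0.00619 and 0.00708 in WT. The collagen genes Col1a1, Col1a2 and Col3a1 of the stellate list were higher in KO as well, at 4.08, 2.72 and 4.02 in the table that the authors deposited, and their part in the Tram2 value was not tested.

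**Figure D3:**
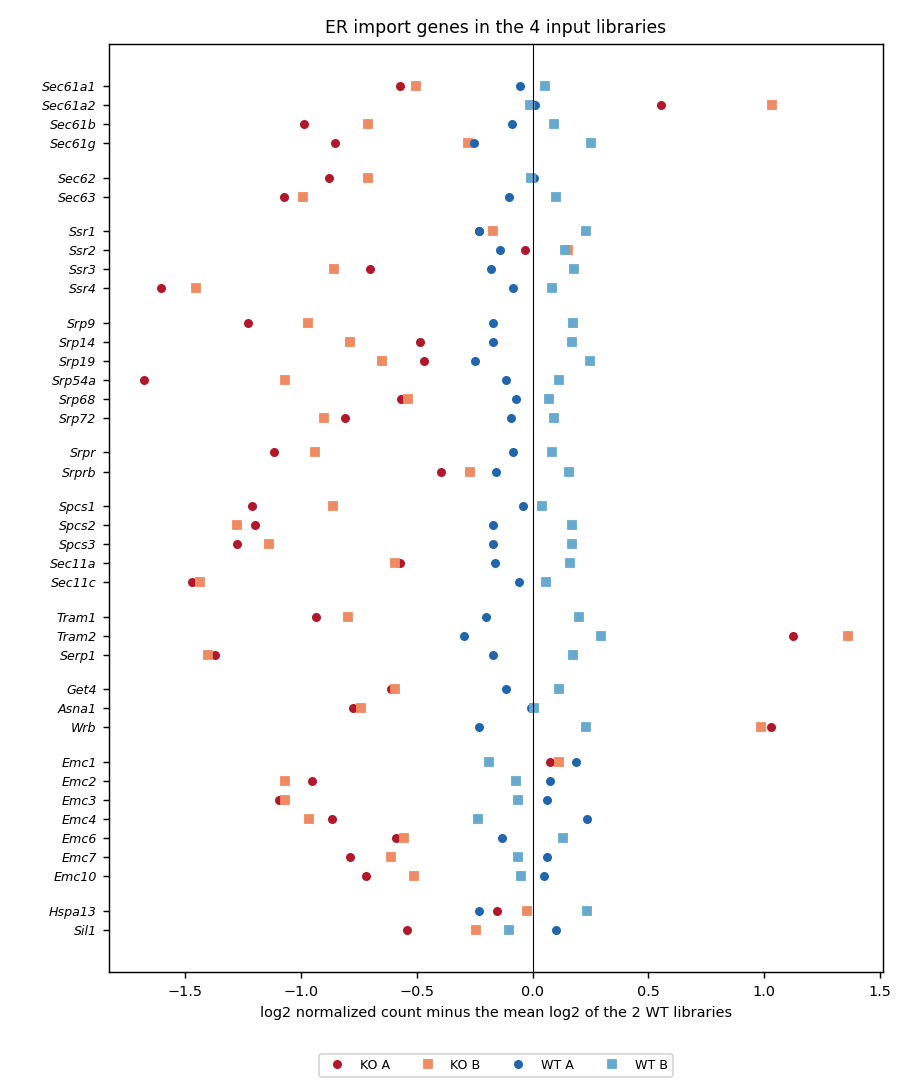
Normalized counts of the 38 ER import genes in the 4 input libraries, as log2 minus the mean log2 of the 2 WT libraries (horizontal axis), at the authors' size factors; red and orange are KO, dark and light blue are WT, and genes are grouped by complex as in the plot of changes. Both KO points lie left of both WT points in 31 genes and right of them in 3 (Sec61a2, Tram2, Wrb); equal total counts would move all KO points to the right by about 0.81.

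Signal peptidase was the complex with the lowest median, -1.22 in the authors' deposited table and -0.39 with equal totals, and all 5 of its genes were lower. Sec11c and Sec11a encode its alternative catalytic subunits. Sec11c had 465 and 475 normalized counts in KO and 1235 and 1340 in WT (-1.45 ± 0.20, adjusted p = 7.20e-12 in the authors' deposited table), and it was called lower with equal totals (-0.63, adjusted p = 0.00336, limma). Sec11a fell least of the 5, with 1052 and 1038 against 1400 and 1751 (-0.59 ± 0.20, adjusted p = 0.0102 in the authors' deposited table). Relative to Sec11a, Sec11c was lower in both KO libraries: the ratio of the first to the second was 0.442 and 0.457 in KO against 0.882 and 0.765 in WT. Spcs2, an accessory subunit, had 1112 and 1055 against 2269 and 2874 (-1.25 ± 0.20, adjusted p = 4.07e-09 in the authors' deposited table; with equal totals -0.42, adjusted p = 0.0455, limma). Spcs3, which is needed for catalysis, had 1369 and 1508 against 2952 and 3734 (-1.22 ± 0.20, adjusted p = 7.08e-09 in the authors' deposited table). Spcs1, a small accessory subunit, had 1006 and 1284 against 2264 and 2401 (-1.03 ± 0.20, adjusted p = 2.09e-06 in the authors' deposited table). In all 5 genes the higher KO library lay below the lower WT library.

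Tail-anchored proteins carry their only membrane segment at the end and are handed over by the GET route. Its ATPase Asna1 had 564 and 579 normalized counts in KO against 962 and 972 in WT (-0.76 ± 0.20, adjusted p = 7.42e-04 in the authors' deposited table). Get4, which helps to load Asna1, had 528 and 535 against 746 and 875 (-0.61 ± 0.21, adjusted p = 0.0129 in the authors' deposited table). Wrb, a subunit of the receptor in the ER membrane, was higher in KO, with 150 and 145 against 62.5 and 86.2 (0.99 ± 0.37, adjusted p = 0.0180 in the authors' deposited table). The other receptor subunit, Camlg, had 0.40 ± 0.26 in the authors' deposited table and was not called (adjusted p = 0.220). With equal totals the values of Asna1, Get4 and Wrb were 0.06, 0.22 and 1.81. The ratio of Wrb to Asna1 counts was 0.266 and 0.251 in KO against 0.0650 and 0.0886 in WT.

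The ER membrane complex inserts segments that SEC61 handles poorly, and 6 of its 7 listed genes were lower (median -0.70 in the authors' deposited table, 0.12 with equal totals). Emc3, which carries the insertase fold, had the largest fall, with 707 and 719 normalized counts in KO against 1574 and 1445 in WT (-1.08 ± 0.19, adjusted p = 2.05e-07 in the authors' deposited table). Emc2, a cytosolic scaffold, had 264 and 243 against 537 and 485 (-1.01 ± 0.24, adjusted p = 1.11e-04 in the authors' deposited table). Emc4, a membrane subunit, had 621 and 580 against 1331 and 962, the WT libraries being the furthest apart of the complex (-0.93 ± 0.23, adjusted p = 1.61e-04 in the authors' deposited table). Emc6, which lies next to Emc3, had 698 and 716 against 960 and 1151 (-0.58 ± 0.21, adjusted p = 0.0150 in the authors' deposited table). The luminal subunits Emc7 and Emc10 were both lower. Emc7 had 790 and 892 against 1425 and 1306 (-0.70 ± 0.20, adjusted p = 0.00157 in the authors' deposited table). Emc10 had 728 and 842 against 1240 and 1159 (-0.61 ± 0.20, adjusted p = 0.00743 in the authors' deposited table). Emc1, the largest luminal subunit, overlapped between genotypes, with 528 and 542 against 570 and 440 (0.08 ± 0.23, adjusted p = 0.820 in the authors' deposited table). The ratio of Emc3 to Emc1 was 1.34 and 1.33 in KO against 2.76 and 3.28 in WT.

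Neither of the 2 partners of the luminal Hsp70 cycle was called, and their median was -0.25 in the authors' deposited table and 0.58 with equal totals. Sil1, a nucleotide exchange factor of BiP, had 1599 and 1968 normalized counts in KO against 2496 and 2171 in WT (-0.39 ± 0.20, adjusted p = 0.102 in the authors' deposited table). Hspa13, an Hsp70 relative of the ER, had 1285 and 1407 against 1216 and 1681 (-0.11 ± 0.22, adjusted p = 0.737 in the authors' deposited table).

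Ratios of 2 genes within a library compare subunits without any scaling of libraries. Of 9 pairs compared, chosen after the values had been seen, 6 had a lower and 3 a higher ratio in both KO libraries than in both WT libraries. Several pairs set a gene called lower against a gene not called or called higher, which favours such a gap. The share among other gene pairs was not computed, so the 9 pairs have no background. The size of the difference ran from 1.24-fold (Sec61b to Sec61a1) to 4.31-fold (Tram2 to Tram1). Serp1 to Sec61a1 gave 0.592 and 0.553 in KO against 0.947 and 1.12 in WT. Sec61a2 to Sec61a1 gave 0.00567 and 0.00753 against 0.00272 and 0.00248, and Sec61b to Sec61a1 0.143 and 0.165 against 0.186 and 0.195. With 2 libraries against 2 an exact two-sided permutation test cannot go below 0.333, so no p is given for a ratio. These are ratios of counts, not of molecules, since gene lengths differ.

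**Figure D4:**
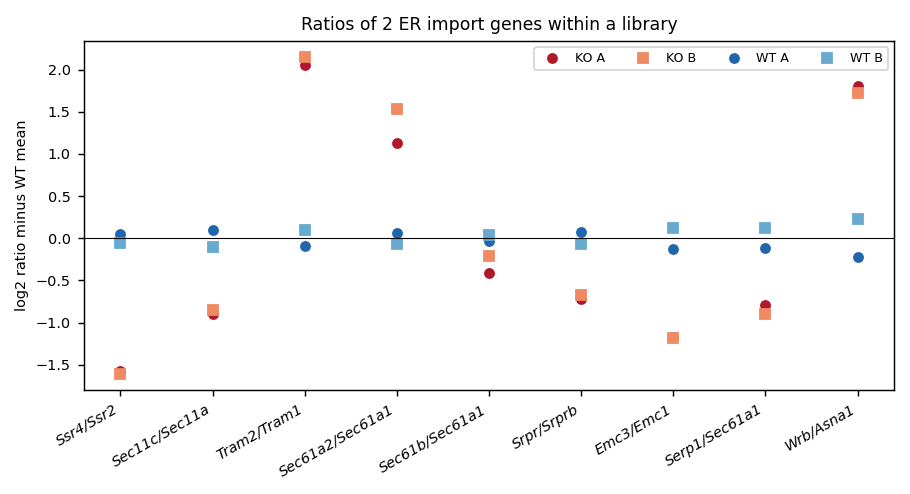
Ratio of the normalized counts of 2 ER import genes within each input library, as log2 minus the mean of the 2 WT libraries (vertical axis), for 9 pairs (horizontal axis); red and orange are KO, dark and light blue WT. KO lies below WT for 6 pairs and above it for 3, by 1.24-fold for Sec61b to Sec61a1 and 3.01-fold for Ssr4 to Ssr2, and no scaling of libraries changes these gaps. The pairs were chosen after the values had been seen.

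Other genes of ER import and early processing, listed from knowledge of the pathway, gave these counts: of 42 tested, 28 were lower and 2 higher in the authors' deposited table (median -0.63; 0.18 with equal totals, where limma called 5 lower and 12 higher). Of the 42, 34 lie in the mean count range of the abundant import genes, where 41.9% of all genes were lower and 17.0% higher, and 24 of these 34 were lower. Over all tested genes the shares were 22.2% and 20.4%. The oligosaccharyltransferase, which N-glycosylates chains at the channel and whose substrate tunicamycin withholds, had 9 of 12 genes lower. They included the small subunit Dad1 (-1.61 ± 0.19, adjusted p = 2.24e-16 in the authors' deposited table) with 1157 and 1272 normalized counts against 3432 and 3996. Magt1, an oxidoreductase subunit, had -1.27 (adjusted p = 3.90e-11 in the authors' deposited table). In the multipass translocon, which takes over for proteins with many membrane segments, 4 of 7 were lower. Those with the smallest p were Tmco1 (-1.38, adjusted p = 3.10e-11 in the authors' deposited table) and Rab5if (-0.94, adjusted p = 2.91e-06 in the authors' deposited table), and Wdr83os had -1.11 there (adjusted p = 7.59e-06). The further ER membrane complex genes gave 2 of 3 lower, Emc9 (-1.44) and Mmgt1 (-0.93) in the authors' deposited table. The further tail-anchor genes gave 2 of 4, the chaperone Bag6 (-0.54) and the receptor of released chains Sgta (-0.47) in the authors' deposited table. Tmem208 of the SND route had -1.31 (adjusted p = 3.96e-08 in the authors' deposited table).

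The 2 rises in that list were Ckap4 and Hspa5. Ckap4, a protein that shapes rough ER sheets, rose from 52.8 and 33.7 normalized counts in WT to 259 and 242 in KO (2.52 ± 0.36, adjusted p = 2.65e-11 in the authors' deposited table). Its subset of ribosome and signal peptide handling had 4 of 6 genes lower, among them the ribosome-binding protein Rrbp1 (-0.86, adjusted p = 6.57e-06 in the authors' deposited table). Hspa5, the Hsp70 BiP itself, was 2.56-fold higher (1.36 ± 0.20, adjusted p = 3.35e-10 in the authors' deposited table); its counts per library were not recovered. Among its 6 listed cofactors 4 were lower, with Dnajb11, a co-chaperone, at -1.12 (adjusted p = 3.21e-09 in the authors' deposited table) from 10016 and 11756 in WT to 4915 and 5088 in KO. BiP and most of its measured partners thus had opposite signs at the authors' size factors. With equal totals limma called 0 of the cofactors lower and 2 higher. These were Dnajc10 (1.09, adjusted p = 2.74e-04, limma) and Dnajc1 (0.51, adjusted p = 0.0149, limma). The lowest was Dnajb11 at -0.30 (adjusted p = 0.143, limma). Hspa5 was not in that fit, so the opposite signs are shown at the authors' size factors only.

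m6A peaks were described from the authors' deposited lists, 1 for each genotype, with an enrichment value per peak that is the authors' own and has no replicate. The WT list held 5586 peaks in 2988 genes and the KO list 12290 peaks in 5861 genes. No source used here gives the depth of the immunoprecipitated libraries, so the number of peaks cannot be compared between genotypes. Of the 38 import genes, 24 had at least 1 peak in WT (35 peaks) and 31 in KO (60 peaks), with 22 in both, 2 in the WT list alone, 9 in the KO list alone and 5 in neither. Over all measured genes 18.5% had a WT peak, 36.3% a KO peak, 16.9% both, 1.59% a WT peak alone and 19.4% a KO peak alone. For genes in the same mean count range these shares were 48.6%, 80.5%, 46.0%, 2.63% and 34.5%. The 2 genes with a WT peak alone were Srp9 and Srp14, the dimer described above, each with 1 peak near the gene's end, at enrichments of 4.98 and 6.38. Both peaks are weak, at percentiles 15.2 and 19.7 of the WT list, whose median is 24.2. The 9 with a KO peak alone were Sec61g, Ssr1, Ssr2, Srp19, Srpr, Spcs1, Spcs2, Sec11a and Emc2. The 5 without a peak, Sec61a2, Srp54a, Tram2, Get4 and Wrb, had a median mean count of 111 against 1739 for the others.

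Many of these peaks lay at the gene start. Within 300 bases of the start, a distance set after the data had been seen, lay 14 of 35 WT peaks (40%) and 24 of 60 KO peaks (40%), against 24.9% and 25.9% of all placed peaks. Within 1000 bases of the gene's end lay 7 WT and 9 KO peaks. The largest enrichment was at the start of Srp68, chr11:116274069-116274118 on the minus strand (mm10), with 1293 in the WT list over a peak of only 50 bases. The KO peak over it, 301 bases in 3 blocks, had 33.7, 38.3-fold less. Next was the start of Serp1, chr3:58525435-58525734 on the minus strand, just downstream of the promoter printed above, with 684 in WT and 114 in KO. A second WT peak of Serp1 near the end of the gene (10.5) overlapped none in KO. Sec62 held 4 WT and 5 KO peaks, the strongest at chr3:30818636-30818983 on the plus strand with 240 in WT and 43.0 in KO, and another 446 bases from the gene's start with 193 and 48.6.

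Where a WT and a KO peak overlapped on the same strand, the KO enrichment was usually the lower one. Of 30 such pairs in 21 import genes, 26 had a lower value in KO, and the median KO over WT ratio was 0.417. The same held over the lists: of 4217 pairs 74.8% were lower in KO with a median ratio of 0.509, and pairs in genes of the same mean count range had 76.7% and 0.489. A difference of at least 5-fold was found in 7 of the 30 pairs and in 18.5% of all pairs. Several pairs share 1 KO peak and are not independent. The 7 pairs that differed at least 5-fold were in Srp68, Srp72 (34.0 and 5.20), Sil1 (45.7 and 7.48), Serp1, Emc6 (125 and 21.7), Sec62 and Emc10 (38.5 and 7.05). The 4 pairs with the higher value in KO were at the start of Spcs3 (88.6 in WT, 97.6 in KO), Emc3 (26.3 and 32.1) and Ssr3 (42.8 and 44.8), and in Emc4 (4.85 and 12.0). Ssr4, the gene that fell most, had a pair at its start, chrX:73787122-73787266 on the plus strand, with the same borders in both lists and enrichments of 13.3 and 8.85.

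**Figure D5:**
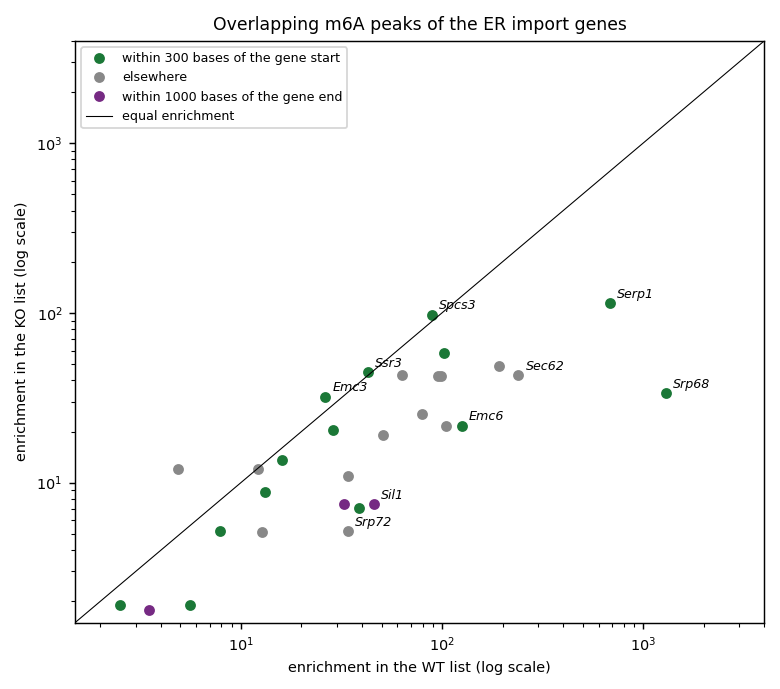
Enrichment of overlapping m6A peaks of the ER import genes in the WT list (horizontal axis, log scale) and the KO list (vertical axis, log scale), 1 point per WT peak (30 peaks); colours give the position in the gene and the line marks equal enrichment. Of the 30 points 26 lie below the line, with Srp68 (1293 and 33.7) farthest from it and Spcs3, Emc3 and Ssr3 just above. Paired peaks often cover stretches of unlike length.

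The remaining pairs fell between these. Hspa13, with 2 WT peaks at 95.5 and 99.0 under 1 KO peak at 42.5, and Tram1, with 102 at its start in WT and 57.8 in KO, kept high values in both lists. Srprb had 104 and 21.7 inside the gene but 16.0 and 13.5 at its start, so peaks of the same gene differed in their ratio. Emc1 had 79.5 and 25.5, Sec63 50.9 and 19.1, Asna1 28.7 and 20.4, and Emc7 7.92 and 5.18. Some of the weakest peaks were in genes of the channel. Sec61b had 2.51 and 5.58 in WT with 1.91 in KO, and the 2 WT peaks of Sec61a1 had 3.49 and 12.7 with 1.79 and 5.14 in KO. The Sec61b peak at 5.58 shared only 5 bases with its KO peak and the Sec61a1 peak at 3.49 only 1, so these lie nearly side by side. Among peaks found in KO without an overlapping WT peak, the highest were in Spcs2 (81.0), Ssr1 (48.6), Hspa13 (38.4) and Sec63 (37.7 at its start). Sec61a1 also had a KO peak of 26.0 at its start, and the peaks of Ssr2 (4.84 and 4.62), Srp19 (3.18) and Sec11a (4.08) were among the lowest of that list.

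Expression change did not order the genes by peak class in a simple way. The median log2 change in the authors' deposited table was -0.79 for the 22 genes with peaks in both lists, -0.59 for the 9 with a KO peak alone, -0.87 for the 2 with a WT peak alone and 0.81 for the 5 with none. Of the 5 without a peak, Srp54a and Get4 were lower and Tram2 and Wrb higher. Sec61a2, Tram2 and Wrb are the least abundant of the 38, and for them the lack of a peak cannot be told apart from low abundance. Srp54a and Get4, with mean counts of 1154 and 671, are within the range of the abundant import genes. The near copy Srp54c had 1 WT peak, and whether peaks of the Srp54 copies were assigned to the right symbol is unknown.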

How the data were processed

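Per the submitters' processing notes, reads were aligned with HISAT2 2.1.0 to mm10 and compared with DESeq2 1.18.1; no source used here names the counter, the annotation or the peak caller. In the deposited table the mean is a signal, counts of 4 input libraries divided by size factors; the fold change and its SE are in log2 units, the Wald statistic is a score, and p-values and adjusted p-values are the authors'. The deposited peak lists give an enrichment, read as a ratio over input, and a second value, read as a p-value and not used.

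Each deposited mean is a sum of 4 whole counts times a step per library, and the counts that give it were searched for means up to 20000, guided by the deposited fold change; 83 genes lay above that mean and 15 others were not recovered. Size factors were 1.25 and 1.18 for the KO and 0.927 and 0.743 for the WT libraries. Refitted fold changes differed from the deposited ones by at most 0.00486 on the log2 scale over the 10447 recovered genes with a mean above 50, which is no independent check where the fold change guided the search. On simulated libraries 598 of 598 genes were recovered. The simulated fold changes came from the same model fit that the search uses, and the lowest means were left out. This trial was therefore easier than the deposited data. As alternatives, limma 3.58.1 (trend setting) was run on the log2 of normalized counts plus 1, and again with libraries scaled to equal total counts. Peaks were shared where blocks overlapped by at least 1 base on the same strand.

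The 38 genes and the gene lists were chosen with earlier results of these data known. Genes are named by a rule: values per library for the largest rise and fall of each complex and each gene with a peak; of other pathway genes up to 2 called genes of smallest p per subset; and Mettl14. Get4, Wdr83os and Camlg, outside the rule, were named after their values were seen.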

Additional observations from a re-analysis of the deposited data

How the results depend on the processing

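No paired analysis was possible because the recovered counts carry no replicate number and the deposited table none. Scaling turned the sign of 17 of the 38 changes. With equal total counts limma called 5 import genes lower (7.83% of all genes) and 9 higher (58.3%). The median of the import genes was 0.091, 0 complexes had most genes lower (6 before), and the pathway list had 5 lower and 12 higher. No import gene called lower in the authors' deposited table was called higher with equal totals, so signs turned but no call was reversed. The 17 genes with the opposite sign in that fit were at 0.28 for Sec61a1, 0.26 for Sec61g, 0.026 for Sec62, 0.62 for Ssr1, 0.040 for Ssr3, 0.18 for Srp14, 0.26 for Srp19, 0.27 for Srp68, 0.49 for Srprb, 0.24 for Sec11a, 0.22 for Get4, 0.062 for Asna1, 0.25 for Emc6, 0.12 for Emc7, 0.21 for Emc10, 0.73 for Hspa13 and 0.43 for Sil1. An adjusted p of 0.01 left 22 import genes lower (27 at 0.05), 0 higher (2 at 0.05) and 4 complexes mostly lower, without Srp14, Srp68, Sec11a, Get4, Emc6, Tram2 and Wrb. The share of all tested genes at 0.01 was not computed, so these counts have no background. Limma called 1 pathway gene higher instead of 2 with the main pseudocount of 1, with 8, without a filter and with a mean of at least 10, since Hspa5 was not recovered; limma did not call Sec61a1 (adjusted p = 0.0511) and did call Srp19 (0.0436). Leaving out 1 library in turn gave a median log2 change of the import genes of -0.80 to -0.66 in limma. The calls were lost without either KO library, where the spread is that of the WT pair alone and the lone library is assumed to vary like it. Without WT A limma also called Sec61g, Srp19 and Srprb lower, and without WT B it called Sil1. Signs changed for Ssr2 (-0.035 without KO B, and -0.083 when WT A was left out) and, with WT B left out, for Ssr1 (0.029), Emc1 (-0.093) and Hspa13 (0.14), none of them called. Genes with peaks in both lists had a median log2 change 0.21 below that of genes without a WT peak (-0.208), and -0.388 to -0.0023 over the fits without 1 library. Keeping only peaks at or above the median enrichment of their list left 14 genes in both lists and 4 in the KO list alone. It left 2 in the WT list alone, and these were no longer Srp9 and Srp14. An overlap of 50% of both peaks left 7 genes with a pair instead of 21. The unknown depth of the immunoprecipitated libraries limits any comparison of peak numbers.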
